A study of Mus musculus with 10 samples.

Results

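The NF-κB system was described here through 10 genes measured in Ly6C high monocytes of the spleen. They are the 5 subunits Nfkb1, Nfkb2, Rel, Rela and Relb, the inhibitors and regulators Nfkbia, Nfkbie, Tnfaip3 and Bcl3, and the cytokine gene Tnf. The genes were taken by symbol from the expression tables, and all 10 were found in every library among 24421 gene symbols. Each gene had 1 entry per table at the same position in all libraries, and all 10 passed the filter on low values.

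The cells came from 3 groups of male C57BL/6 background mice on day 5 after surgery, namely WT mice after sham surgery (3 libraries, replicates 1, 2 and 3), WT mice after MI (3 libraries, replicates 2, 3 and 4) and Foxp3DTR mice after MI (4 libraries, replicates 1 to 4). MI was made by tying off the left anterior descending artery for good, and sham surgery a thoracotomy without ligation. Foxp3DTR mice express the human diphtheria toxin receptor from the Foxp3 promoter, so that diphtheria toxin removes regulatory T-cells (Tregs), and any other cell that uses this promoter. By the study's own account the depletion in the spleen was partial. The protocol for such experiments gives 500 ng of toxin 2 days and 1 day before surgery and 250 ng on day 2 after it, be it MI or sham surgery. The labels do not give the toxin treatment of single samples. The study describes the WT mice set against Foxp3DTR mice as toxin-treated, and whether the sham-operated mice of this experiment received toxin is not clear from the sources used here. No Foxp3DTR mice after sham surgery were analysed here, so in their comparison with sham-operated WT mice the genotype, any difference in toxin, the loss of Tregs and the surgery cannot be told apart. All mice received buprenorphine. The study states 4 animals per group for its comparison of Foxp3DTR with WT mice, while the WT MI group here holds 3 libraries. Each library was taken as 1 animal, although the labels do not state separate animals. The p-values below therefore measure the spread between these libraries.

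NF-κB is a family of dimeric transcription factors that monocytes hold ready in the cytosol. Inhibitors of the IκB family bind the dimers. Signals from receptors for TNF, interleukin 1 or microbial products activate the IκB kinases, which mark the inhibitor for destruction and set the dimer free to enter the nucleus. Several genes of the system are themselves NF-κB targets, so that their mRNA can follow the activity of the pathway. The activation itself acts on proteins, which were not measured here.

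The promoters of these genes are shown first, because κB sites near the start of a gene are the textbook route by which NF-κB acts on its own regulators. RefSeq promoter windows (GRCm38.p6, the build named mm10 for the expression tables) of 250 bases before to 50 bases after an annotated start were searched on both strands for the κB decamer consensus. A window was given for 8 of the 10 members. Nfkb1 and Relb had none. Of the 8, 6 held at least 1 match, namely Nfkb2, Rel, Nfkbia, Nfkbie, Tnfaip3 and Bcl3. Among all tested genes with a window, 5.89% of 9409 held a match. The windows of Rela and Tnf held none, which says only that these letters are not in them.

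The 250 bases before the first annotated start of Nfkb2 (chr19:46304487-46304736, + strand) and before that of Nfkbia (chr12:55492648-55492897, − strand) are printed 5′ to 3′, since they hold matches closest to the start of a subunit gene and of the most abundant inhibitor gene. Capitals mark the matches:
Nfkb2: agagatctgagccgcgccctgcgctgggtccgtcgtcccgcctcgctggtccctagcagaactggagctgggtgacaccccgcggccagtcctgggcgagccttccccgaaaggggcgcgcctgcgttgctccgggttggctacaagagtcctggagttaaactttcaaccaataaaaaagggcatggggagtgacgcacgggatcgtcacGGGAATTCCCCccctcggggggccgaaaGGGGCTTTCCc
Nfkbia: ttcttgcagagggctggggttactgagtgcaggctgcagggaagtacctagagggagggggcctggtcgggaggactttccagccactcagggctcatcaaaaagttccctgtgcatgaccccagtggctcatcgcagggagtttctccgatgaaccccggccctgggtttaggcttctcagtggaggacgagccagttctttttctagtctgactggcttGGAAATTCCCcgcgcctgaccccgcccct

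Stretches of 30 bases around the matches of the other genes, and of the later start of Nfkb2, show how the decamer varied between members. Capitals again mark the match, 5′ to 3′ on the strand of the gene:
Rel, chr11:23771041-23771070: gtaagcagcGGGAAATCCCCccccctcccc
Nfkbie, chr17:45555584-45555613: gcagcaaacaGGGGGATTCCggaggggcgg
Tnfaip3, chr10:19015516-19015545: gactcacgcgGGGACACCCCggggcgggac
Tnfaip3, chr10:19015403-19015432: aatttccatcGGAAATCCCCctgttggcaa
Bcl3, chr7:19822734-19822763: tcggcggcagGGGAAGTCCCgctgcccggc
Nfkb2, chr19:46305449-46305478: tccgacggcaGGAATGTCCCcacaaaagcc
Nfkb2, chr19:46305695-46305724: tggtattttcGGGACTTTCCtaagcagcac

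The capitals of Rel and those farther upstream in Nfkb2 are 11 bases long because matches overlap there, on both strands. The match of Bcl3 began at base 3 after the annotated start, in transcribed sequence. The last of the Nfkb2 stretches lies in the windows of both later annotated starts of the gene.

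**Figure D1:**
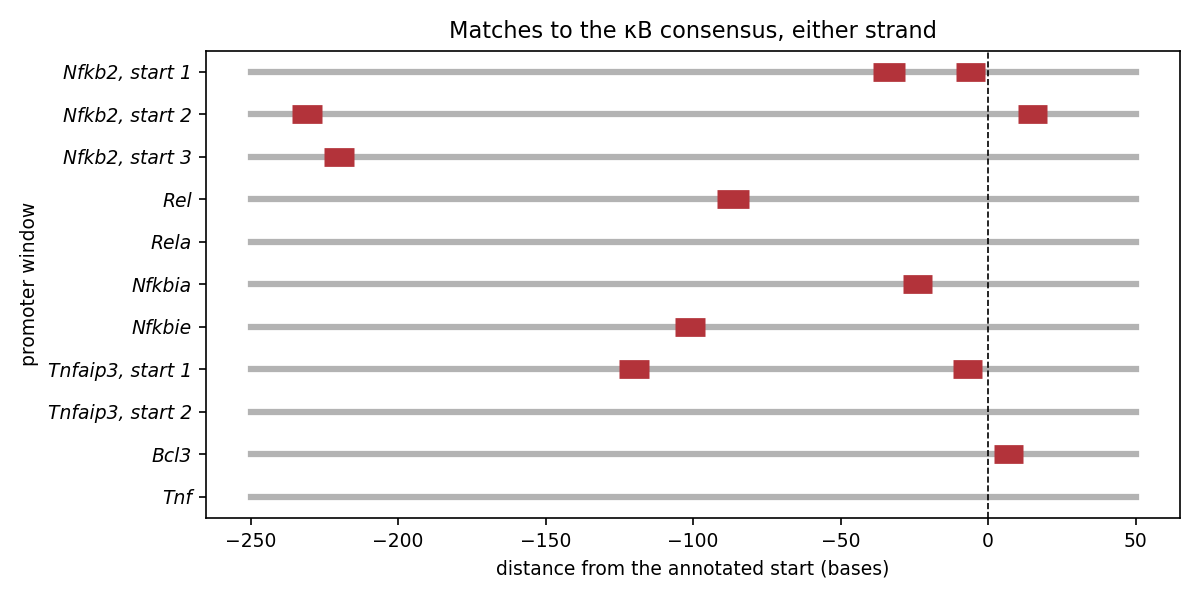
Positions of matches to the κB consensus in the promoter windows of 8 members. Each grey bar is a window from 250 bases before to 50 bases after an annotated start (horizontal axis, distance in bases; the dashed line is the start), and red blocks are matches on either strand. The windows of Rela, Tnf and the second start of Tnfaip3 hold no block.

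Levels are given as TPM (transcripts per 1e6 transcripts, corrected for transcript length by the authors) divided by a scaling factor per library, called scaled TPM. Depth was 3.13 to 8.40 M reads per library (M, 1e6), inferred from coverage and FPKM, with sham replicate 2 the shallowest. The sort markers Ly6c2, Ccr2, Csf1r, Itgam and Adgre1 were high in all groups, with group means from 139 to 3944 scaled TPM. The 11 T-cell markers had sums of 10.9 to 182 after sham surgery, of 10.5 to 12.1 in infarcted WT mice and of 37.1 to 147 in infarcted Foxp3DTR mice. Neutrophil markers, 15 genes, summed to 744 to 1620, 501 to 785 and 1348 to 3038 in the same order, and NK cell markers, 10 genes, to 69.9 to 249, 44.6 to 93.5 and 117 to 273. Some other sums were lower in infarcted Foxp3DTR than in infarcted WT mice, with no overlap. That of splenic macrophage markers, 11 genes, was 163 to 240 against 310 to 353 (sham, 216 to 328). The 11 genes that mark Ly6C high monocytes summed to 25631 to 41357 against 43864 to 49360 (sham, 38466 to 51411). Of these genes, 5 had a positive and 6 a negative log2 fold change between the MI groups, with a median of −0.02. Ly6c2 was higher in infarcted Foxp3DTR mice, at 3250 to 5065 against 2176 to 3164. Csf1r was lower, at 469 to 613 against 696 to 772. The 13 genes of Ly6C low monocytes summed to 1120 to 1912 against 2737 to 2854 (sham, 1675 to 3082). The 10 of conventional dendritic cells summed to 84.5 to 108 against 134 to 181 (sham, 127 to 218). Sham replicate 3 stood apart from the other sham libraries with the highest sums of T-cell, neutrophil and erythroid markers. Fewer cells of a type and less RNA per cell cannot be told apart in these libraries, and the part of other cells in the levels below was not tested.

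All 10 genes were expressed in every library. Nfkbia, which encodes the inhibitor IκBα, had the highest level, at a mean of 349 scaled TPM over the 10 libraries. Nfkb1, which encodes the p105 precursor of p50, followed at 157 and Rel, which encodes c-Rel, at 98.5. Each of these exceeded the next gene in the order in 10 of 10 libraries. Nfkb2 (61.8), Bcl3 (58.4), Rela (54.7), Nfkbie (54.1) and Tnfaip3 (51.4) lay close together, and neighbours among these changed places, the upper one being higher in only 5 to 8 of 10 libraries. Relb (22.9) and Tnf (11.8) were lowest, and each lay below the gene above it in 10 of 10 libraries. Over the libraries as a whole the ranges of neighbours were apart only between Nfkbia and Nfkb1 and between Tnfaip3 and Relb.

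The number of reads behind these levels differed widely. From the coverage and the longest coding transcript, about 20.9 to 73.6 reads per library fell on Tnf and 70.8 to 171 on Relb, against 807 to 1934 on Nfkbia and 1078 to 2385 on Rel. Tnf and Relb thus rest on the fewest reads of the 10.

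**Figure D2:**
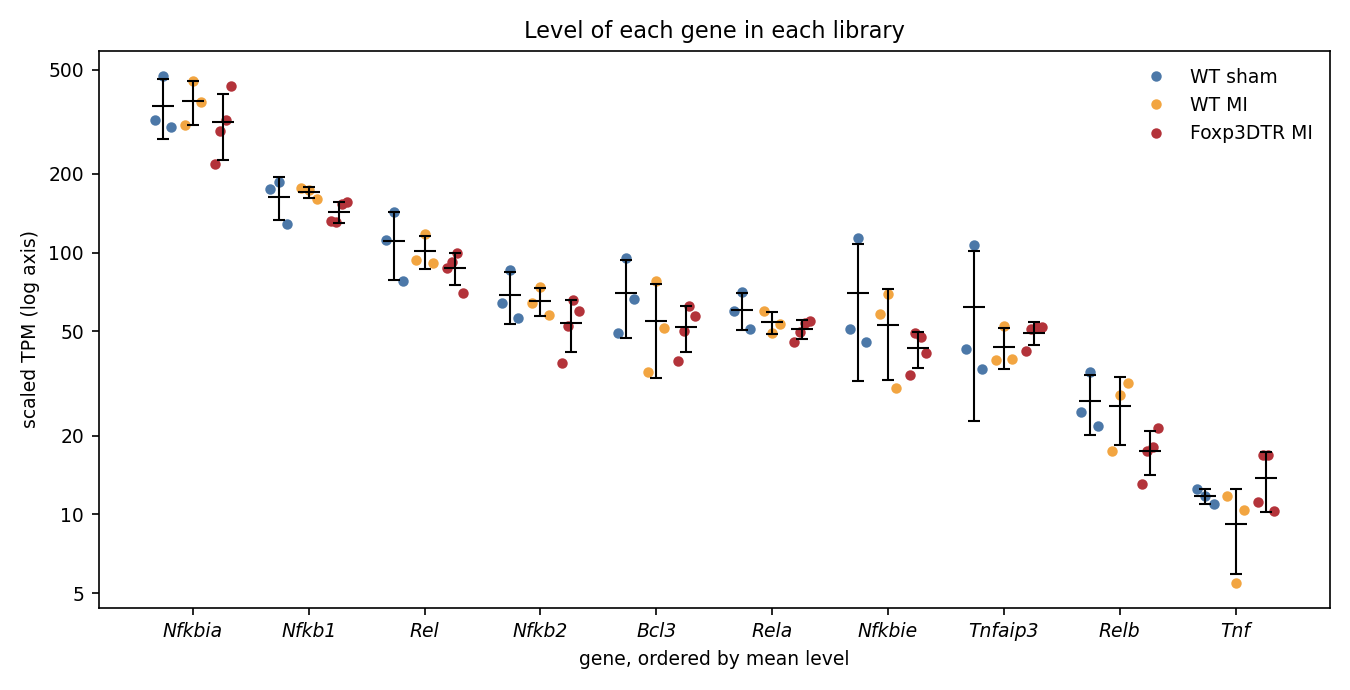
Level of each of the 10 genes in each library. Points are libraries on a log axis of scaled TPM, coloured by group (WT sham, WT MI and Foxp3DTR MI), and black bars are group means ± SD. Genes run from the highest mean (Nfkbia, 349) to the lowest (Tnf, 11.8), and the 3 groups overlap for most genes.

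The main question was whether the genes differed between Foxp3DTR and WT mice after MI, that is after partial depletion of Tregs and without it. None of the 10 passed the test (limma, Benjamini-Hochberg adjusted p under 0.05), where 1.12% of the 12938 genes tested did. At an unadjusted p under 0.05 there were 0 of 10 members, against 17.7% of all genes tested. The log2 fold change was negative for 8 of 10 members with scaling, but for 4 of 10 without it and for 6 of 10 without WT MI replicate 3, and 49.9% of all tested genes were negative with scaling. The median over the members was −0.21 with scaling, where that of all genes was 0.00. Without scaling it was 0.02, where that of all genes was 0.22.

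Nfkb1 was the only member with no overlap between these groups in scaled TPM. Nfkb1 stood at 177, 173 and 160 scaled TPM in infarcted WT mice (170 ± 8.58, SD, n = 3) and at 132, 131, 153 and 156 in Foxp3DTR mice after MI (143 ± 13.5, SD, n = 4). All Foxp3DTR libraries lay below all WT MI libraries, as was the case for 9.02% of all tested genes (no overlap in either direction, 1 of 10 members and 19.0% of all genes). In unscaled TPM the groups overlapped, at 136 to 163 in WT and 146 to 164 in Foxp3DTR mice. The sham libraries, at 175, 187 and 129 scaled TPM, spanned both groups. Between Foxp3DTR and WT mice after MI the log2 fold change was −0.25 (SE 0.13, 95% interval −0.55 to 0.04, limma, Benjamini-Hochberg adjusted p = 0.353), and −0.010 without scaling.

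Relb encodes the partner of p52 in the non-canonical branch of the pathway. Relb was at 17.4, 28.7 and 31.7 scaled TPM in WT mice after MI and at 13.1, 17.4, 18.0 and 21.4 in Foxp3DTR mice after MI. WT MI replicate 2 fell among the Foxp3DTR libraries, and the other WT MI libraries lay above them. Between these groups Relb differed by −0.52 on the log2 scale (SE 0.24, 95% interval −1.05 to 0.01, limma, Benjamini-Hochberg adjusted p = 0.289). The difference was −0.29 without scaling, and ran from −0.77 to −0.36 with each library left out in turn. After sham surgery Relb was at 24.6, 34.9 and 21.7, above all 4 Foxp3DTR libraries.

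Nfkb2 encodes the p100 precursor of p52. Its levels were 64.1, 86.0 and 56.0 scaled TPM after sham surgery, 64.5, 73.8 and 57.6 in WT mice after MI and 37.7, 52.6, 65.9 and 59.8 in Foxp3DTR mice after MI. Only Foxp3DTR replicates 1 and 2 lay below the other libraries. Rel was at 111, 143 and 78.1 after sham surgery, 93.7, 118 and 91.5 in WT mice after MI and 87.5, 91.9, 99.8 and 70.3 in Foxp3DTR mice after MI, with overlap between all groups. Rela, which encodes p65, the main activating subunit of the canonical branch, had the narrowest range but one. It stood at 59.8, 70.5 and 50.9 after sham surgery, 59.7, 49.2 and 53.4 in WT mice after MI and 45.6, 49.6, 53.8 and 54.7 in Foxp3DTR mice after MI. For Foxp3DTR against WT mice after MI the intervals of the log2 fold change were −0.73 to 0.15 for Nfkb2, −0.64 to 0.22 for Rel and −0.37 to 0.20 for Rela.

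Nfkb1 made up the largest share of the 5 subunits in every library and Relb the smallest. Nfkb1 held 39.9 ± 2.25% of their summed scaled TPM (SD, n = 10), Rel 24.8 ± 2.63%, Nfkb2 15.6 ± 1.52%, Rela 13.9 ± 1.16% and Relb 5.73 ± 1.24%. Between libraries the share ran from 4.15 to 8.04% for Relb, from 11.9 to 16.9% for Nfkb2 and from 19.4 to 27.7% for Rel. The share of Relb was 6.27 ± 0.54% after sham surgery, 6.25 ± 1.92% in WT mice after MI and 4.94 ± 0.75% in Foxp3DTR mice after MI. The sum of the 5 subunits was 434, 521 and 335 scaled TPM after sham surgery, 412, 443 and 395 in WT mice after MI and 316, 342, 391 and 362 in Foxp3DTR mice after MI. The Foxp3DTR sums lay below those of WT mice after MI, with 391 and 395 in the nearest libraries, but without scaling the groups overlapped, at 340 to 419 against 335 to 416. No test was made on the sum.

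Among the inhibitors, Nfkbia was at 320, 472 and 302 scaled TPM after sham surgery, 308, 454 and 377 in WT mice after MI and 218, 291, 321 and 432 in Foxp3DTR mice after MI. The groups overlapped, and the Foxp3DTR libraries alone covered most of the range. The ratio of Nfkbia to the sum of the 5 subunits ran from 0.69 to 1.19, and both extremes were Foxp3DTR libraries. The log2 fold change of Nfkbia between Foxp3DTR and WT mice after MI was −0.29 (95% interval −0.81 to 0.23, limma, Benjamini-Hochberg adjusted p = 0.555).

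Nfkbie encodes IκBε, an inhibitor that binds mainly dimers of Rela and Rel. Nfkbie was at 51.0, 114 and 45.6 scaled TPM after sham surgery, 58.4, 69.4 and 30.3 in WT mice after MI and 34.1, 49.1, 47.6 and 41.5 in Foxp3DTR mice after MI. The highest value, in sham replicate 2, was 3.75 times the lowest, the widest span of the 10 members. Tnfaip3 encodes A20, a ubiquitin-editing enzyme that ends signalling to the IκB kinases. It was at 42.9, 107 and 35.8 after sham surgery, 38.9, 52.6 and 39.3 in WT mice after MI and 42.0, 51.3, 52.1 and 52.1 in Foxp3DTR mice after MI. Bcl3 encodes an IκB family member that acts in the nucleus with p50 or p52 dimers. It was at 49.3, 94.99 and 66.7 after sham surgery, 35.1, 77.7 and 51.3 in WT mice after MI and 38.5, 50.4, 62.8 and 57.1 in Foxp3DTR mice after MI. All 3 genes overlapped between the MI groups, and the intervals of their log2 fold changes between Foxp3DTR and WT mice after MI were −0.96 to 0.53 for Nfkbie, −0.49 to 0.86 for Tnfaip3 and −0.64 to 0.61 for Bcl3.

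Tnf, the inflammatory cytokine that both activates NF-κB and is transcribed under its control, was low in all groups. Tnf was at 12.5, 11.8 and 10.98 scaled TPM after sham surgery (11.8 ± 0.77, SD, n = 3), 11.7, 5.49 and 10.4 in infarcted WT mice (9.21 ± 3.28, SD, n = 3) and 11.2, 16.9, 16.8 and 10.3 in Foxp3DTR mice after MI (13.8 ± 3.56, SD, n = 4). Foxp3DTR replicates 2 and 3 were above every other library, while replicates 1 and 4 lay among the WT libraries. WT MI replicate 3 was the lowest library. Between Foxp3DTR and WT mice after MI the log2 fold change of Tnf was 0.56 (SE 0.26, 95% interval −0.01 to 1.13, limma, Benjamini-Hochberg adjusted p = 0.287), a fold of 1.48 with an interval of 1.00 to 2.18. Without scaling the log2 fold change was 0.78 (limma, Benjamini-Hochberg adjusted p = 0.103), and without WT MI replicate 3 it was 0.26 (0.628 in the same adjustment).

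**Figure D3:**
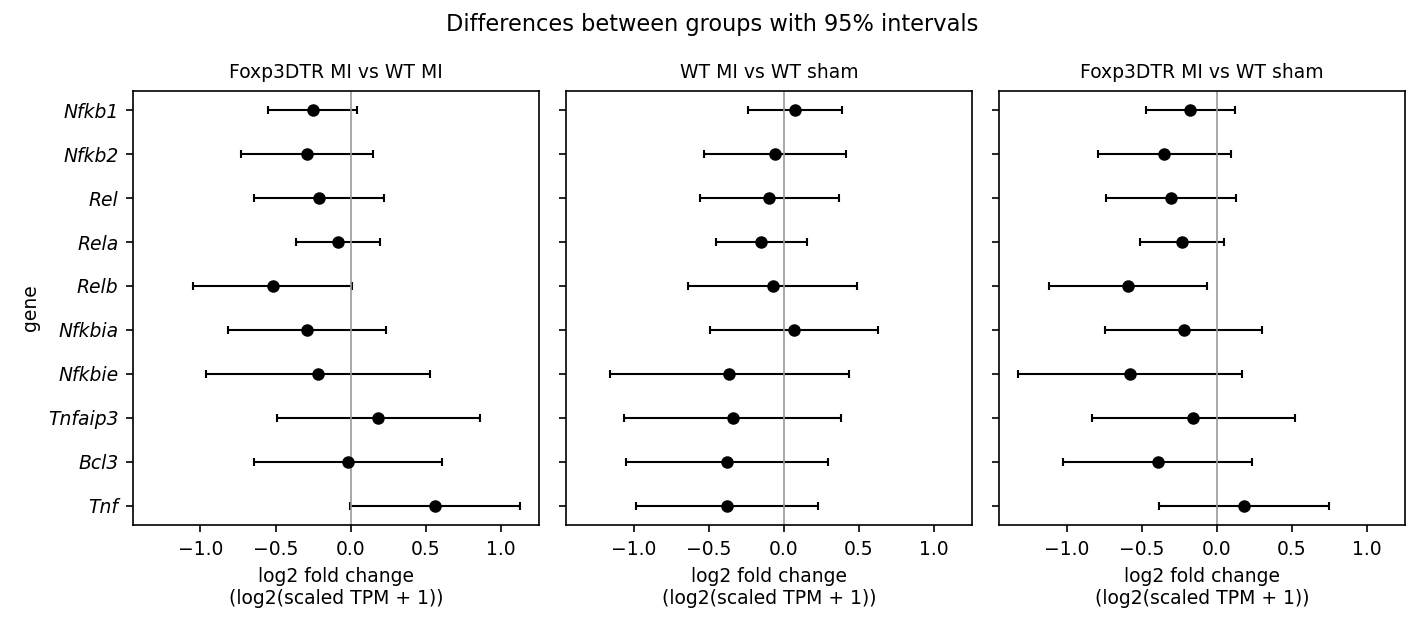
Log2 fold changes of the 10 genes in the 3 comparisons, on log2(scaled TPM + 1). Points are estimates and bars 95% intervals from the fit over 10 libraries, with the vertical line at no difference. All bars cross this line apart from that of Relb between Foxp3DTR MI and WT sham (−1.12 to −0.07), which did not pass after adjustment.

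The effect of MI in mice with Tregs was asked by comparing WT mice after MI with sham-operated WT mice. These groups may also differ in toxin, which cannot be told apart from the surgery here. No member passed the test, nor did any other gene (limma, Benjamini-Hochberg, 0% of 12938 genes), and at an unadjusted p under 0.05 there were 0 of 10 members against 4.64% of all genes tested. The groups overlapped for all 10 members in scaled TPM, where 6.91% of tested genes had no overlap, and Tnf alone had none in unscaled TPM (5.16 to 10.7 after MI, 11.5 to 12.9 after sham surgery). The members were negative in 8 of 10 cases, against 50.3% of all tested genes. They were negative in 10 of 10 cases without scaling, where the median of all genes was −0.17, in 5 of 10 with array weights and in 3 of 10 without sham replicate 2. Log2 fold changes ran from −0.38 (Tnf and Bcl3) to 0.07 (Nfkb1 and Nfkbia), with adjusted p from 0.960 to 0.995. The estimates of Nfkb1 and Nfkbia, the only positive ones, were negative without scaling and after quantile normalization. The widest interval was that of Nfkbie, −1.16 to 0.44.

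Foxp3DTR mice after MI and sham-operated WT mice differ in genotype and surgery at once, and may differ in toxin. No member passed the test here either (limma, Benjamini-Hochberg, 0.541% of all genes did), and 1 of 10 members was below an unadjusted p of 0.05, against 18.6% of all genes tested. That member was Relb, with all Foxp3DTR libraries (13.1 to 21.4 scaled TPM) below all sham libraries (21.7 to 34.9), as in 8.44% of tested genes (no overlap in either direction, 1 of 10 members and 18.2% of all genes). The gap between the nearest libraries of the groups was small. The log2 fold change of Relb was −0.59 (SE 0.24, 95% interval −1.12 to −0.07, limma, Benjamini-Hochberg adjusted p = 0.221). Of the members, 9 had a negative log2 fold change, with and without scaling (8 without sham replicate 2), where 51.0% of all tested genes had one with scaling. The comparison shares the sham libraries with the one before it and the Foxp3DTR libraries with the main one, so that the values are not independent of these.

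Sham replicate 2 had the highest level of all 10 libraries for 9 of the 10 members, as was seen in its values after they were known. Of all tested genes, 21.0% had their highest level in this library. The member not included was Tnf, at 11.8 scaled TPM there against a maximum of 16.9. In the same library the summed level of 28 immediate-early genes, such as Fos and Egr1, which respond within minutes to stimuli and to handling of cells, was 8637 scaled TPM, against 2753 to 6563 in the other 9 libraries. This sum was 3653 to 6563 in infarcted WT mice and 2753 to 3334 in infarcted Foxp3DTR mice, with no overlap, and its part in the levels of the members was not tested. Without sham replicate 2, the log2 difference between infarcted and sham-operated WT mice went from −0.36 to 0.04 for Nfkbie and from −0.34 to 0.13 for Tnfaip3, and that of Tnfaip3 between Foxp3DTR mice after MI and sham surgery from −0.16 to 0.32.

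**Figure D4:**
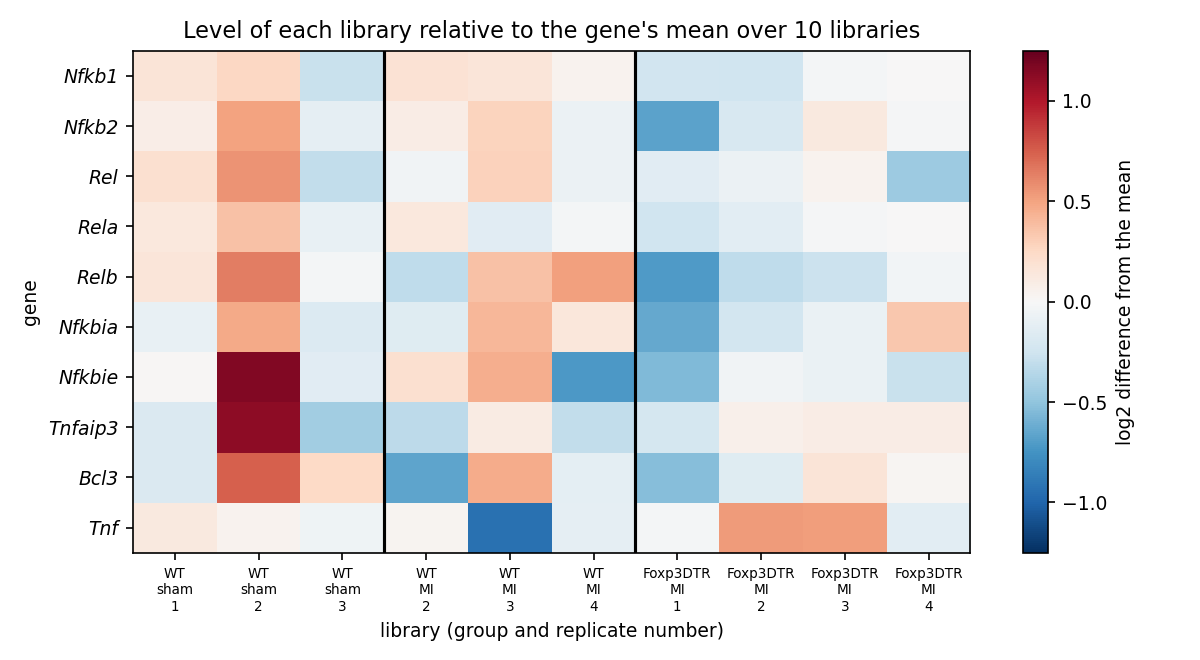
Level of each gene in each library relative to its mean over the 10 libraries. Rows are genes, columns are libraries with their group and replicate number, and the colour is the log2 difference from the mean (red higher, blue lower). The column of sham replicate 2 is red for all members except Tnf, which is near its mean there.

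The other genes of the pathway were examined in 8 lists, 112 genes in all, of which 104 passed the filter. Between Foxp3DTR and WT mice after MI, 2 of these rose and 0 fell (limma, Benjamini-Hochberg, against 0.688% of all tested genes higher and 0.433% lower). Of the 104, 62 were positive, against 6477 of all 12938 tested genes. The median log2 fold change over the 104 was 0.08, against 0.00 over all tested genes. None of the 104 passed in the other comparisons. Most genes named below were picked by low p between the MI groups, which makes a lack of overlap between these groups likely. Of all tested genes, 19.0% had no overlap between them.

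One of the pair was Tax1bp1, which encodes an adaptor that brings A20 to its targets. Tax1bp1 stood at 210, 193 and 194 scaled TPM in WT mice after MI and at 266, 268, 295 and 278 in Foxp3DTR mice after MI, with no overlap, and at 221, 197 and 229 after sham surgery. It rose by 0.47 on the log2 scale (limma, Benjamini-Hochberg adjusted p = 0.045). The other was Sod2, which encodes the mitochondrial superoxide dismutase and is a classical NF-κB target. Sod2 stood at 38.3, 38.9 and 38.4 in WT mice after MI and at 47.7, 55.8, 57.7 and 55.2 in Foxp3DTR mice after MI, again with no overlap. Sham libraries, at 47.2, 42.8 and 45.1, lay between these groups, above all WT MI libraries. It rose by 0.47 as well (limma, Benjamini-Hochberg adjusted p = 0.048). Both passed by a small margin, Tax1bp1 in 10 and Sod2 in 11 of 22 alternative settings, and both failed without sham replicate 1 or any 1 of the 7 MI libraries, with adjusted p up to 0.126 and 0.143.

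Among the 8 kinases, 0 passed and 6 were positive. Ikbkb, which encodes IKKβ, the kinase of the canonical branch, was at 260, 241 and 235 scaled TPM in WT mice after MI and at 133, 153, 168 and 167 in Foxp3DTR mice after MI. The Foxp3DTR libraries lay below all others, sham included (170 to 268), though in unscaled TPM they overlapped with sham. The log2 fold change of −0.66 just missed the threshold (limma, Benjamini-Hochberg adjusted p = 0.061). Chuk, which encodes IKKα, differed by 0.19 (Benjamini-Hochberg adjusted p = 0.358), Map3k14, which encodes the NF-κB-inducing kinase of the non-canonical branch, by −0.62 (0.196 in the same adjustment) and Ikbke, which encodes IKKε, by 0.63 (0.292).

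Of 8 genes for TNF receptors and the shedding of TNF, 6 were tested and 0 passed. Tnfrsf1b, which encodes TNF receptor 2, was at 733, 730 and 650 scaled TPM in WT mice after MI and at 365, 360, 488 and 424 in Foxp3DTR mice after MI. These did not overlap, and the log2 fold change was −0.79 (limma, Benjamini-Hochberg adjusted p = 0.059). Sham libraries ranged from 441 to 732. The log2 fold change was 0.70 for Cd40, a receptor that also signals through the non-canonical branch (limma, Benjamini-Hochberg adjusted p = 0.192). Cd40 overlapped between the MI groups, with WT MI replicate 3 at 36.4 scaled TPM, above all Foxp3DTR libraries (34.0 to 36.3). For Ltbr, the lymphotoxin β receptor, the log2 fold change was −0.12, and its sign turned without scaling. Rhbdf2 differed by 0.30, with overlap between the MI groups in scaled TPM.

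The 3 remaining IκB genes had negative log2 fold changes, −0.70 for Nfkbiz, −0.47 for Nfkbid and −0.04 for Nfkbib, and that of Nfkbib was positive without scaling. None passed the test. Nfkbid, which encodes a nuclear IκB protein, was at 45.1, 38.6 and 37.5 scaled TPM in WT mice after MI and at 25.9, 34.8, 32.4 and 23.3 in Foxp3DTR mice after MI, with no overlap in scaled TPM but with overlap in unscaled TPM. Nfkbiz, which encodes the nuclear IκBζ, reached 301 in sham replicate 2 against 66.3 to 168 in the other libraries.

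None of the 28 adaptors and ubiquitin ligases passed (15 positive, median 0.04), and the named ones of lowest p were Ripk1 (0.34), Tab2 (−0.40), Card9 (−0.24) and Irak1 (−0.27). Of 10 deubiquitinases and partners of A20, 6 were positive, with Tax1bp1 the one that passed. Otulin (−0.32) and Tnip1 (−0.33), also among those of lowest p, were negative. Otulin did not overlap between the MI groups in scaled TPM but did in unscaled TPM. Tnip1 overlapped between the MI groups, and its Foxp3DTR libraries lay below all sham libraries. Tnip3, which encodes an A20-binding protein, was low, at 2.56, 2.02 and 0.909 scaled TPM in WT mice after MI and at 4.80, 5.20, 5.43 and 3.98 in Foxp3DTR mice after MI (log2 fold change 1.09, limma, Benjamini-Hochberg adjusted p = 0.066). The sham libraries, at 3.05, 4.75 and 3.43, overlapped with the Foxp3DTR libraries and lay above all WT MI libraries. Of 9 genes listed for the control of Tnf mRNA, 0 passed and 5 were positive. The one of lowest p was Zfp36l2, at 822, 757 and 953 scaled TPM in WT mice after MI. In Foxp3DTR mice after MI Zfp36l2 was at 490, 450, 545 and 547, with no overlap. Its log2 fold change was −0.73 (limma, Benjamini-Hochberg adjusted p = 0.100). Zc3h12a (−0.40) and Tia1 (−0.18) overlapped between the MI groups. Zfp36, which encodes tristetraprolin, a protein that binds the Tnf message and speeds its decay, was at 870, 1141 and 1317 in WT mice after MI and at 559, 624, 593 and 704 in Foxp3DTR mice after MI. These did not overlap, and the log2 fold change was −0.82 (limma, Benjamini-Hochberg adjusted p = 0.272). Zfp36 is itself an immediate-early gene and reached 2131 in sham replicate 2.

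Of 38 NF-κB target genes, 34 were tested, 1 rose and 0 fell, and 24 were positive with a median of 0.26. Of all 12938 tested genes, 6477 were positive, with a median of 0.00, and 89 were called higher. Between infarcted and sham-operated WT mice, 21 of the 34 targets were negative, with a median of −0.16. Between Foxp3DTR mice after MI and sham-operated WT mice, 20 were positive, with a median of 0.06. Besides Sod2, those of lowest p between the MI groups were Irf1, Csf1 and Tnfaip2. Irf1, a transcription factor that interferon-γ also induces, was at 85.1, 179 and 87.5 scaled TPM in WT mice after MI and at 264, 275, 439 and 300 in Foxp3DTR mice after MI (log2 fold change 1.497, limma, Benjamini-Hochberg adjusted p = 0.072). Without overlap between the MI groups, Irf1 still had a sham library, replicate 3 at 277, within the Foxp3DTR range. The log2 fold changes were 0.98 for Csf1, the gene of a monocyte growth factor, and 0.56 for Tnfaip2. Csf1 was at 2.00 to 4.39 in WT mice after MI, 5.56 to 9.40 in infarcted Foxp3DTR mice and 5.67 to 8.01 in sham libraries, so that the WT MI libraries stood apart from both other groups. The WT MI libraries of Tnfaip2 lay below those of both other groups too.

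**Figure D5:**
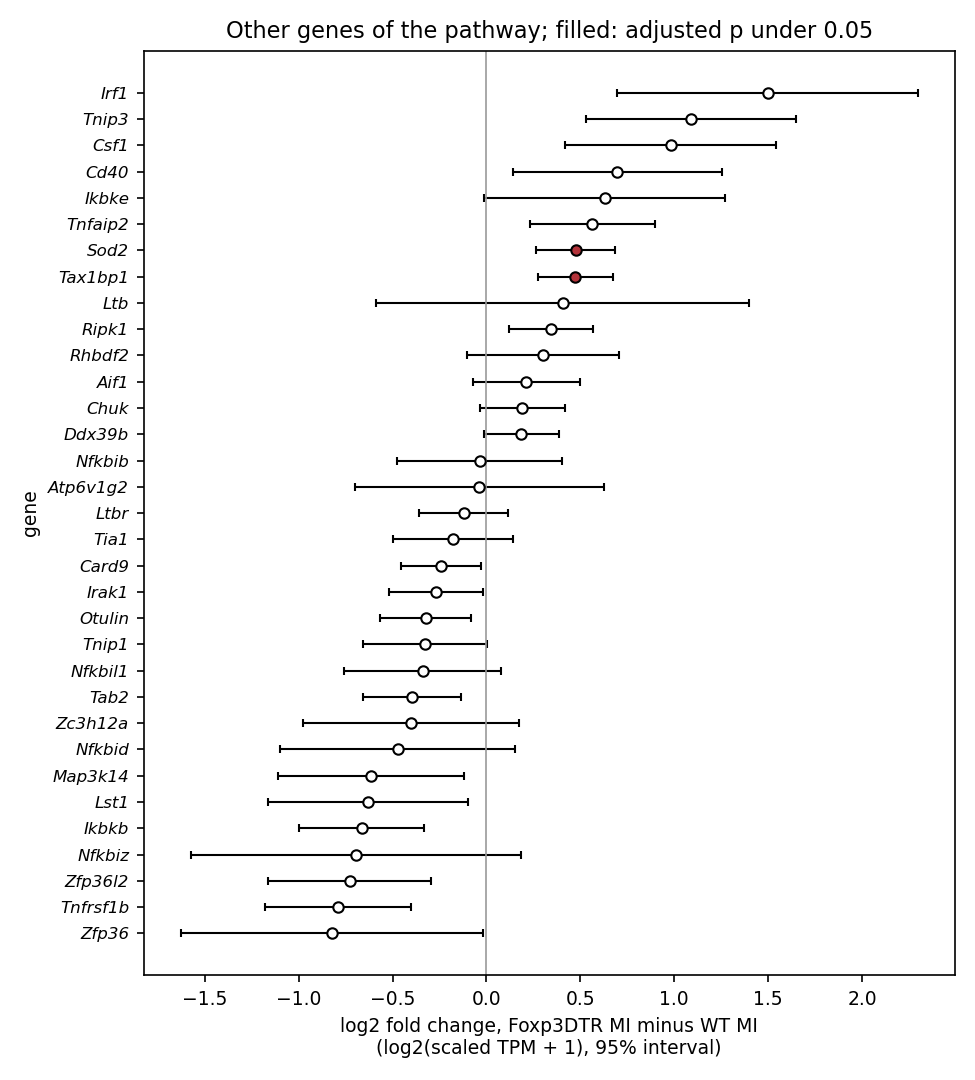
Log2 fold changes between Foxp3DTR and WT mice after MI of the named genes of the 8 lists, on log2(scaled TPM + 1), with 95% intervals. Filled points are genes with an adjusted p under 0.05, which are Tax1bp1 and Sod2, both at 0.47.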

How the data were processed

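RNA of 10 libraries (20 to 50 pg of RNA each, NuGEN Ovation SoLo kit) was sequenced by the authors as 50 bp single-end reads. Tools named in the processing notes of the submitters are CASAVA 1.4, StringTie 1.3.0, STAR 2.5 and cutadapt 1.1, with the build mm10. The authors deposited 1 table per library with coverage (a signal), FPKM and TPM per gene. No counts were among them, so the DESeq2 test of the study was not repeated. TPM sums to 1e6 per library, so abundant RNAs move all others. Entries of a symbol were summed, each library was scaled by its median-of-ratios factor, and genes that reached 1 TPM in 3 or more libraries were tested with limma 3.58.1 in R 4.3.3 on log2(scaled TPM + 1), which understates changes of low genes, over all 10 libraries with a variance trend and two-sided Benjamini-Hochberg adjustment. With unscaled TPM the median log2 fold change over the genes tested was 0.22 for Foxp3DTR against WT mice after MI, −0.17 for infarcted against sham-operated WT mice and 0.05 for Foxp3DTR against sham-operated mice. Reads per library were inferred from coverage divided by FPKM, constant within 1% for 84.9 to 85.2% of entries. Whether strand was used in counting is unstated in the sources used here, and overlapping genes may share reads.

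The members and lists were chosen with earlier results of these data known. Named in the text are all members, list genes past the threshold, up to 4 tested genes of lowest p per list, the neighbours of Tnf, and the 2 genes nearest in pattern to each member that spans 1 or more on the log2 scale. On data simulated for the comparison of Foxp3DTR with WT mice after MI (12938 genes), 79 of 100 genes changed by 1 on the log2 scale and 95 of 100 changed by 2 were called, and 9 of 12738 unchanged genes. The noise was drawn independently for each gene, and changes were placed only on genes above a minimum level. Changes below 1, such as those estimated for all members, were not simulated, so the run does not give the power for them. Alternatives were other scalings, pseudocounts, filters, fits, a replicate block and the removal of each library.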

Additional observations from a re-analysis of the deposited data

Results flagged for a closer look

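Of 10 genes checked in the 4 Foxp3DTR libraries, 1 had a library far from the rest. Tnfaip3 was at 42.0 scaled TPM in Foxp3DTR replicate 1 and at 51.3 to 52.1 in the other 3 libraries, so that the gap to the nearest library took more of the group's range than Dixon's 95% critical value allows. Chance alone flags about 1 in 20 groups. The value lies within the range of the WT libraries.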

How the results depend on the processing

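No member passed the test in any of the 3 comparisons under any of 22 alternative settings. The lowest adjusted p (limma, Benjamini-Hochberg) was 0.103 for Tnf between Foxp3DTR and WT mice after MI, without scaling, 0.588 between MI and sham surgery, and 0.101 for Rel between Foxp3DTR mice and sham surgery, without sham replicate 3. The sign of the log2 fold change turned in 8, 20 and 2 of 220 values each, and the cause was not tested.

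Between Foxp3DTR and WT mice after MI, removal of the scaling gave 0.030 for Rel, 0.15 for Rela, 0.019 for Nfkbie and 0.22 for Bcl3, and the replicate block 0.13 for Bcl3. With each library left out in turn, Nfkbie ran from −0.57 to 0.018 and Bcl3 from −0.29 to 0.27. Between infarcted and sham-operated WT mice, removal of the scaling gave −0.11 for Nfkb1 and −0.11 for Nfkbia, quantile normalization −0.0057 for Nfkb1 and −0.043 for Nfkbia, array weights 0.050 for Nfkb2, 0.018 for Rel and 0.061 for Relb, and the replicate block 0.0025 for Rel and −0.16 for Nfkbia. With each library left out in turn, Nfkb1 ran from −0.087 to 0.18, Nfkb2 from −0.19 to 0.11, Rel from −0.32 to 0.11, Relb from −0.23 to 0.18, Nfkbia from −0.069 to 0.27, Nfkbie from −0.60 to 0.043 and Tnfaip3 from −0.64 to 0.13. Between Foxp3DTR mice and sham surgery, array weights gave 0.083 for Tnfaip3, and leaving out libraries −0.46 to 0.32.

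Counts over all genes moved more. The 145 genes called between Foxp3DTR and WT mice after MI (89 higher and 56 lower) became 527 without scaling (488 higher and 39 lower), 22 without the filter, 583 in a fit of these groups alone, 66 without the variance trend, 398 with array weights and 81 with the replicate block, and 0 to 431 with a library left out, the 0 without WT MI replicate 2, where 2425 were under an unadjusted p of 0.05. The 0 between MI and sham surgery became 3 in a fit of these groups alone and 0 to 2 with a library left out. The 70 between Foxp3DTR mice and sham surgery became 23 with a pseudocount of 0.1, 11 without the filter, 10 in a fit of these groups alone, 28 without the variance trend, 16 with the replicate block and 3 to 636 with a library left out.

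Among the other named pathway genes, 31 in number, 13 passed in at least 1 setting and 4 turned sign in at least 1 (Nfkbib, Ltbr, Tia1 and Atp6v1g2). Same-numbered libraries correlated by −0.19 to 0.19 in their deviations from the group means, so the numbers were not taken as pairs. TPM keeps no counting error, and the low read numbers of Tnf and Relb limit what could be seen of them.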

Other observations

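Tnf lies in the major histocompatibility complex on chromosome 17 beside genes that are active in immune cells. Of 8 listed neighbours, 6 were tested and none passed in any comparison. Lst1, which encodes a leukocyte-specific membrane protein, averaged 429 ± 70.8 scaled TPM in Foxp3DTR mice (SD, n = 4) and 659 ± 22.8 in WT mice after MI (SD, n = 3), a log2 fold change of −0.63, opposite in sign to that of Tnf. Aif1 averaged 92.0 ± 6.93 against 79.3 ± 6.37 (0.21). Ltb, the gene of lymphotoxin β, was low in all groups, with means of 2.97 and 2.14 (0.41). Nfkbil1 differed by −0.34, Ddx39b by 0.19 and Atp6v1g2 by −0.04.

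The 2 genes nearest in pattern over the 10 libraries were found for 8 members. Likeness was the root mean square difference of log2 values after each gene was centred on its mean. Nearest to Relb were Ccdc88c and Ier2, an immediate-early gene (both 0.16, where Relb itself varied by 0.40 about its mean). Nearest to Nfkbia were Tmem259 (0.14) and Tmem63b (0.15), to Rel Zfp949 (0.077) and 5530601H04Rik (0.11), and to Nfkb2 Mkl1 and Map7d1 (both 0.11). Nearest to Tnfaip3 were Tctn3 (0.16) and Tnfrsf12a (0.17), to Nfkbie Hivep3 and Peg13 (both 0.21), to Bcl3 Ttc8 (0.17) and Sgsm3 (0.18), and to Tnf Poc1b (0.19) and Tmem144 (0.20). Genes chosen as nearest among 12938 are close by construction, and they share the libraries and their depth.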
